A study of Callithrix jacchus with 6 samples.

Results

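The genes described here are the nuclear-encoded subunits of the mitochondrial respiratory chain and of the ATP synthase. They were chosen by a pattern on the gene symbols of the deposited count matrices, which takes the numbered NDUFA, NDUFB, NDUFC, NDUFS and NDUFV genes (complex I), the SDH subunit genes (complex II), the UQCR genes (complex III), the COX4 to COX8 families (complex IV) and the ATP5 genes (complex V). The pattern found 38 of 29320 genes, of which 22 belong to complex I, 3 to complex II (SDHB, SDHC and SDHD), 2 to complex III (UQCRQ and UQCRC1), 8 to complex IV and 3 to complex V (ATP5F1C, ATP5F1D and ATP5IF1). The pattern reads symbols only and no measured value, though it was chosen with earlier results of these data known. A further 24 subunit genes carry only an identifier in the matrices and take their symbols from a gene name table. They are no members and are given only beside the members. Mitochondrially encoded subunits were not analysed here.

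The measurements are counts of RNA molecules, as unique molecular identifiers (UMIs), in single cells of the hippocampus of the common marmoset (Callithrix jacchus), a small primate. The series title calls the animals aged, and the labels of these samples give no age. The control group was given oxygen for 6 h and gave 3 libraries, and the other group was given sevoflurane, an inhaled anaesthetic, for 6 h and gave 3 libraries. All 6 hippocampi were minced, digested with collagenase, filtered, frozen as cell suspensions and thawed before droplet library preparation with 10x Genomics 3' chemistry. The labels do not say that the libraries of a group come from separate animals, so the p-values below measure only the spread between these libraries, which may be technical.

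As background, complex I takes electrons from NADH and complex II takes them from succinate. Both hand them to ubiquinone, complex III passes them on to cytochrome c, and complex IV passes them to oxygen. Complexes I, III and IV pump protons while doing so, and complex V uses the proton gradient to make ATP. In complex I a core of catalytic subunits (NDUFS1, NDUFS3, NDUFS7, NDUFV1 and NDUFV2 among the members) carries the electrons, and accessory subunits surround and stabilise it. Volatile anaesthetics are known to inhibit complex I, and mice without NDUFS4, an accessory subunit needed for a stable complex, are known for their sensitivity to these agents. In 3 cases the symbol misleads. NDUFA4 is now placed in complex IV, ATP5IF1 encodes an inhibitor of the ATP synthase, and COX7A2L encodes a factor that joins complexes III and IV into supercomplexes.

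The 6 libraries held 7103 to 8577 cell barcodes and 41164947 to 47886816 UMIs. Of 46582 barcodes, 2238 were removed as likely doublets, and 261 barcode sequences occurred in more than 1 library. Cells were clustered without the members, and clusters were named by marker genes, with "-like" marking that the names were rebuilt here. Members were compared in 7 classes, each with at least 20 cells in every library: 8094 oligodendrocyte-like cells, 4897 astrocyte-like cells, 3771 GABAergic neuron-like cells, 1950 oligodendrocyte precursor-like (OPC-like) cells, 1880 microglia-like cells, 740 endothelial-like cells and the 1324 cells of glutamatergic cluster 11, which HS3ST4, VIPR2 and VWC2L lead. The other glutamatergic neuron-like cells were not compared as a class, because cluster 18 had a marker of another cell type and none of its own among its leading genes. The library sevoflurane 3 stood apart: 1052 of its oligodendrocyte-like cells fell in cluster 4, which took 2 to 98 cells from each of the other libraries. Its glutamatergic neuron-like cells also lay apart: 1145 fell in cluster 20 and 1148 in cluster 24, which took at most 110 and 217 cells from any other library, and none fell in cluster 6, the largest. Medians over the members, and the changes of several members after sevoflurane, are also given without this library.

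Among the 7 compared classes, the summed level of the 38 members was on average lowest in the neurons and highest in the endothelial-like and microglia-like cells. Levels are UMIs of the members per 1000000 UMIs of the class in a library (CPM), a share of all RNA counted there, so that a higher share of the members and a lower share of other transcripts cannot be told apart. In glutamatergic cluster 11 the members summed to 877, 861 and 1092 CPM in the oxygen libraries and 1113, 1093 and 931 CPM in the sevoflurane libraries. In GABAergic neuron-like cells they summed to 1047, 1119 and 1306 CPM in the oxygen libraries and 1271, 1298 and 1147 CPM in the sevoflurane libraries. The highest value of glutamatergic cluster 11 lay above the lowest of the GABAergic cells, so these neighbours in the order overlapped. OPC-like cells held 1296, 1341 and 1817 CPM in the oxygen libraries and 1647, 1741 and 1051 CPM in the sevoflurane libraries. Astrocyte-like cells held 1488, 1720.0 and 1976 CPM in the oxygen libraries and 1922, 2108 and 1274 CPM in the sevoflurane libraries. In both classes sevoflurane 3 was the lowest library.

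Oligodendrocyte-like cells held 1555, 1649.8 and 2107 CPM in the oxygen libraries and 2297, 2324 and 1172 CPM in the sevoflurane libraries. Microglia-like cells held 1768, 1760.2 and 2087 CPM in the oxygen libraries and 2232, 2303 and 1223 CPM in the sevoflurane libraries. Endothelial-like cells held 1841, 2085 and 2056 CPM in the oxygen libraries and 2019, 1949.7 and 1564 CPM in the sevoflurane libraries. Over 6 libraries the means were 1851 ± 464 CPM in oligodendrocyte-like, 1896 ± 401 CPM in microglia-like and 1919 ± 194 CPM in endothelial-like cells (SD, n = 6). The ranges of these 3 classes overlapped. These SDs are of single classes and do not measure differences between classes within a library. The astrocyte-like mean was 1748 ± 318 CPM (SD, n = 6), with a range that overlapped theirs. Astrocyte-like cells nevertheless lay below endothelial-like cells in every library except sevoflurane 2 (2108 against 1949.7 CPM). The neuron means were the lowest, at 1198 ± 108 CPM in GABAergic cells and 994 ± 117 CPM in glutamatergic cluster 11 (SD, n = 6). OPC-like cells lay between them and the other classes, at 1482 ± 299 CPM (SD, n = 6). Single libraries overlapped. In sevoflurane 3, OPC-like cells (1051 CPM) lay below GABAergic cells (1147 CPM), and oligodendrocyte-like cells (1172 CPM) lay just above them. Counted per cell, the order turned. A GABAergic cell held 8.98 UMIs of the members on average and a cell of cluster 11 9.07, against 3.53 in oligodendrocyte-like and 3.54 in microglia-like cells. The median depth per cell was 5435 to 8673 UMIs in GABAergic cells and 7542 to 10289 in cluster 11 across libraries, against 1552 to 2186 in oligodendrocyte-like and 1469 to 2159 in microglia-like cells.

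**Figure D1:**
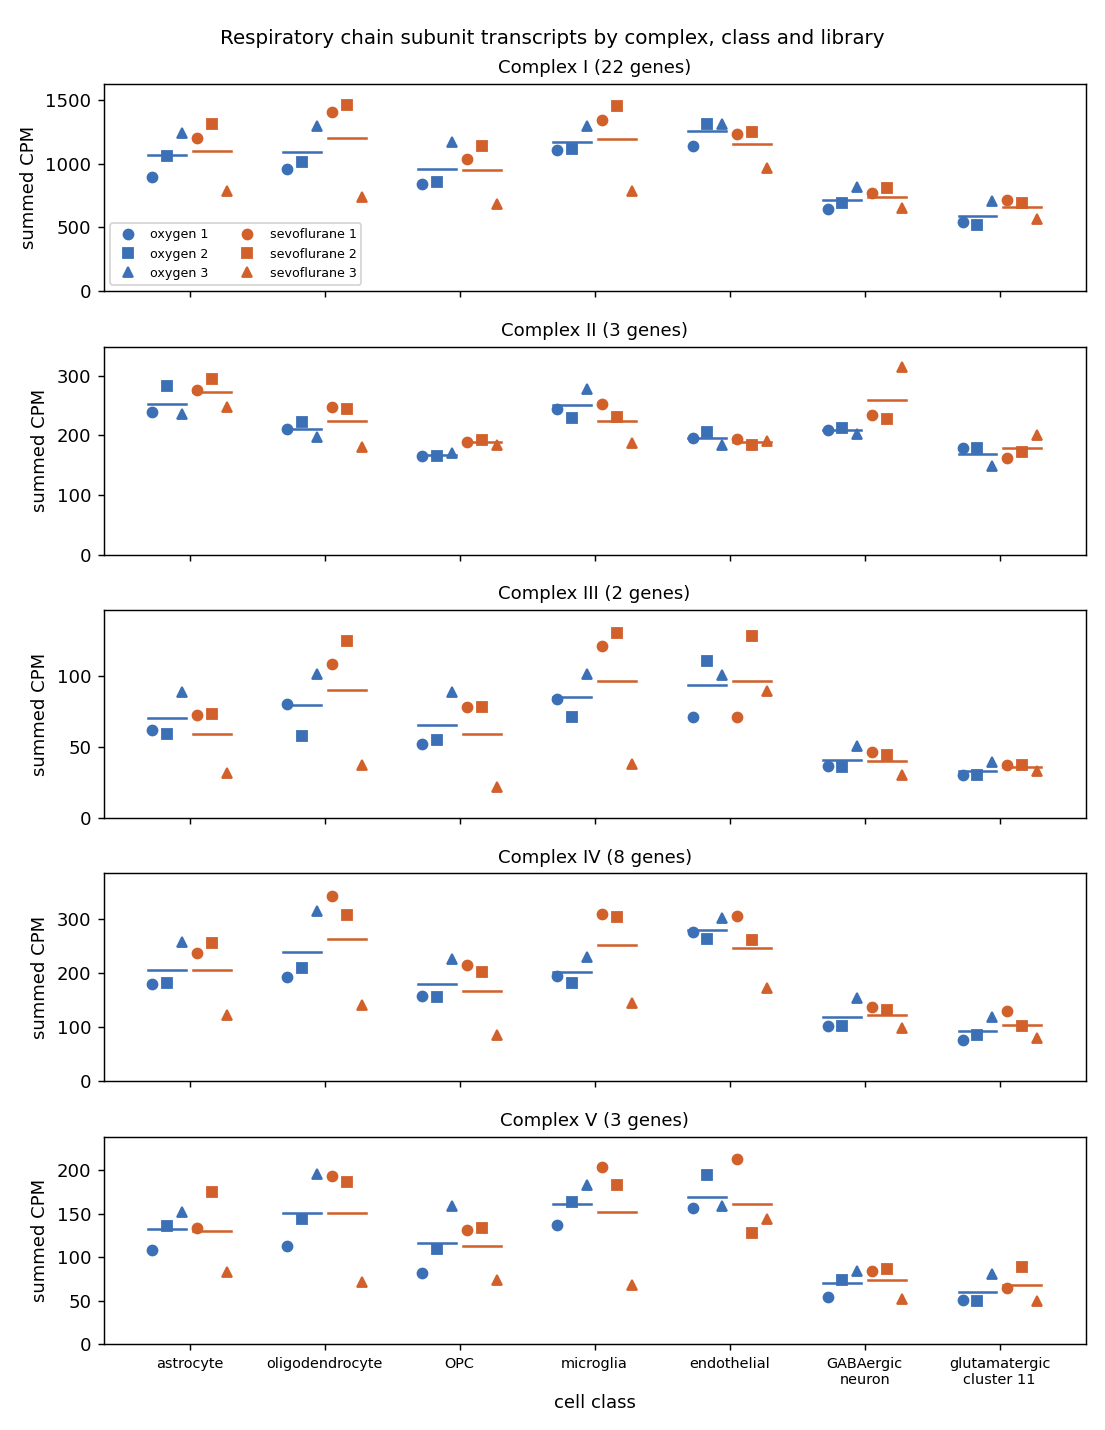
Summed CPM of the members of complexes I to V (1 panel each, linear axes from 0) in 7 cell classes, with 1 point per library (oxygen blue, sevoflurane orange, the shape giving the replicate number) and a line at each group's mean. Both neuron groups lie low for complexes I, III, IV and V, while for complex II the GABAergic cells lie among the glial classes, and sevoflurane 3 lies below the other libraries in most glial panels.

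The complexes did not follow the same order. Complex I summed to 624 CPM in glutamatergic cluster 11 and 730.4 CPM in GABAergic cells, against 954 to 1203 CPM in the other 5 classes (means over 6 libraries). For complex III the neurons stood at 34.5 and 40.4 CPM and the other classes at 62.2 to 94.9 CPM. Complex IV gave 98.7 and 121 CPM in the neurons against 174 to 264 CPM elsewhere. Complex V gave 63.9 and 72.4 CPM against 115 to 166 CPM. Complex II, the succinate dehydrogenase, differed: its 3 members summed to 234 ± 41.3 CPM in GABAergic cells and 263 ± 24.7 CPM in astrocyte-like cells, and to 178 ± 12.01 CPM in OPC-like cells and 174 ± 17.6 CPM in cluster 11 (SD, n = 6).

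Single members differed in how far their level varied between classes. Among the members that passed the filter on low counts, the widest range was that of UQCRQ, a small subunit of complex III, with a class mean of 12.1 CPM in glutamatergic cluster 11 and 57.7 CPM in endothelial-like cells, a ratio of 4.76. Ratios above 4 were also found for the complex I accessory genes NDUFC1 (4.72), NDUFB3 (4.46) and NDUFB11 (4.41) and for COX8A (4.09), a small subunit of complex IV. The ratio of NDUFC1 rests on low counts, with means of 2.18 CPM in cluster 11 and 10.3 CPM in endothelial-like cells. It passed the filter for the comparison of classes, but within only 2 of the 7 classes, neither of them cluster 11 or endothelial-like cells. The narrowest were those of SDHB, the iron-sulfur subunit of complex II (1.56), NDUFA8 (1.59), NDUFS4 (1.60) and SDHC, a membrane anchor of complex II (1.63).

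Each class was then tested against the mean of the other 6 classes, within libraries. The test was edgeR's quasi-likelihood test over 12336 genes, with Benjamini-Hochberg adjusted p-values. A member passed at an adjusted p under 0.05 and was called when its fold change also reached 2. Of the 38 members, 35 entered this comparison. COX4I2, COX8C and COX7B2 had 120, 15 and 11 UMIs in all kept cells and did not pass the filter on low counts. Fold changes are relative to the normalisation by trimmed means (TMM), which assumes that most genes do not differ. Without it the median log2 fold change of all genes moved from -0.11 to 0.16 in endothelial-like cells, from -0.060 to 0.10 in microglia-like cells, from -0.016 to -0.15 in GABAergic cells and from -0.043 to -0.26 in cluster 11.

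Glutamatergic cluster 11 held less of most members. Of the 35, 25 passed as lower and none as higher. Among all genes tested 32.8% passed as lower and 31.1% as higher. The median log2 fold change of the members was -0.59, beside -0.043 for all genes. Of these, 10 members were called at least 2-fold lower, against 15% of all genes (13.7% were called higher): COX4I1, COX8A, UQCRQ, NDUFA4, NDUFC1 and the NDUFB genes NDUFB3, NDUFB7, NDUFB9, NDUFB10 and NDUFB11. NDUFC1 averaged 2.18 CPM in cluster 11 and did not pass the filter on low counts within that class alone. Without sevoflurane 2 the number of members called was 4.

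NDUFB10, an accessory subunit in the membrane arm of complex I, stood at 8.11, 6.99 and 14.0 CPM in the oxygen libraries and 11.6, 12.05 and 5.92 CPM in the sevoflurane libraries of cluster 11. All 6 values lay below its mean of 31.0 CPM in the other classes (log2 fold change -1.36 ± 0.18 SE, edgeR adjusted p = 2.35e-08). COX8A stood at 6.01, 11.5 and 13.1 CPM in the oxygen libraries and 12.9, 10.3 and 8.72 CPM in the sevoflurane libraries. These lay below a mean of 33.0 CPM elsewhere (log2 fold change -1.29 ± 0.16 SE, edgeR adjusted p = 3.09e-09). COX4I1 encodes the common isoform of the regulatory subunit IV of cytochrome c oxidase and stood at 28.2, 28.4 and 42.0 CPM in the oxygen libraries and 50.2, 31.0 and 20.6 CPM in the sevoflurane libraries. Its mean in the other classes was 85.3 CPM (log2 fold change -1.04 ± 0.10 SE, edgeR adjusted p = 1.56e-11). UQCRQ stood at 11.1, 13.5 and 15.8 CPM in the oxygen libraries and 9.02, 11.2 and 12.1 CPM in the sevoflurane libraries, against 40.9 CPM elsewhere (log2 fold change -1.22). ATP5IF1, the ATP synthase inhibitor, stood just under the fold threshold, at -0.99. By contrast NDUFS4, SDHC and SDHB had log2 fold changes of -0.059, -0.029 and -0.0058 and did not pass.

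In GABAergic neuron-like cells 21 members passed as lower (31.5% of all genes) and 1 as higher (32.7% of all genes), with a median log2 fold change of -0.29, beside -0.016 for all genes. Called at least 2-fold lower were NDUFB3, NDUFA2 and UQCRQ, against 10.2% of all genes, and none was called higher (12.8% of all genes). Without sevoflurane 3 there were 6 such members, and without TMM factors 7. NDUFB3, a small membrane subunit of complex I, stood at 4.97, 6.49 and 11.1 CPM in the oxygen libraries and 8.80, 7.37 and 4.20 CPM in the sevoflurane libraries. Its mean in the other classes was 19.7 CPM, above all 6 values (log2 fold change -1.18 ± 0.17 SE, edgeR adjusted p = 1.17e-07). NDUFA2, an accessory subunit of the matrix arm, stood at 6.92, 8.79 and 13.5 CPM in the oxygen libraries and 11.99, 10.3 and 5.84 CPM in the sevoflurane libraries. Its mean elsewhere was 24.2 CPM (log2 fold change -1.09 ± 0.16 SE, edgeR adjusted p = 1.33e-07). UQCRQ averaged 15.6 ± 5.15 CPM (SD, n = 6), against 40.3 CPM elsewhere (log2 fold change -1.09).

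The member that passed as higher in GABAergic cells was SDHC. It stood at 128, 116 and 106 CPM in the oxygen libraries and 132, 134 and 234 CPM in the sevoflurane libraries. Sevoflurane 3 lay far above the other 5 libraries. The log2 fold change was 0.56 ± 0.088 SE (edgeR adjusted p = 7e-07), and 0.39 without sevoflurane 3. SDHB did not pass there (0.077), and SDHD, the other membrane anchor, passed as lower (-0.40).

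**Figure D2:**
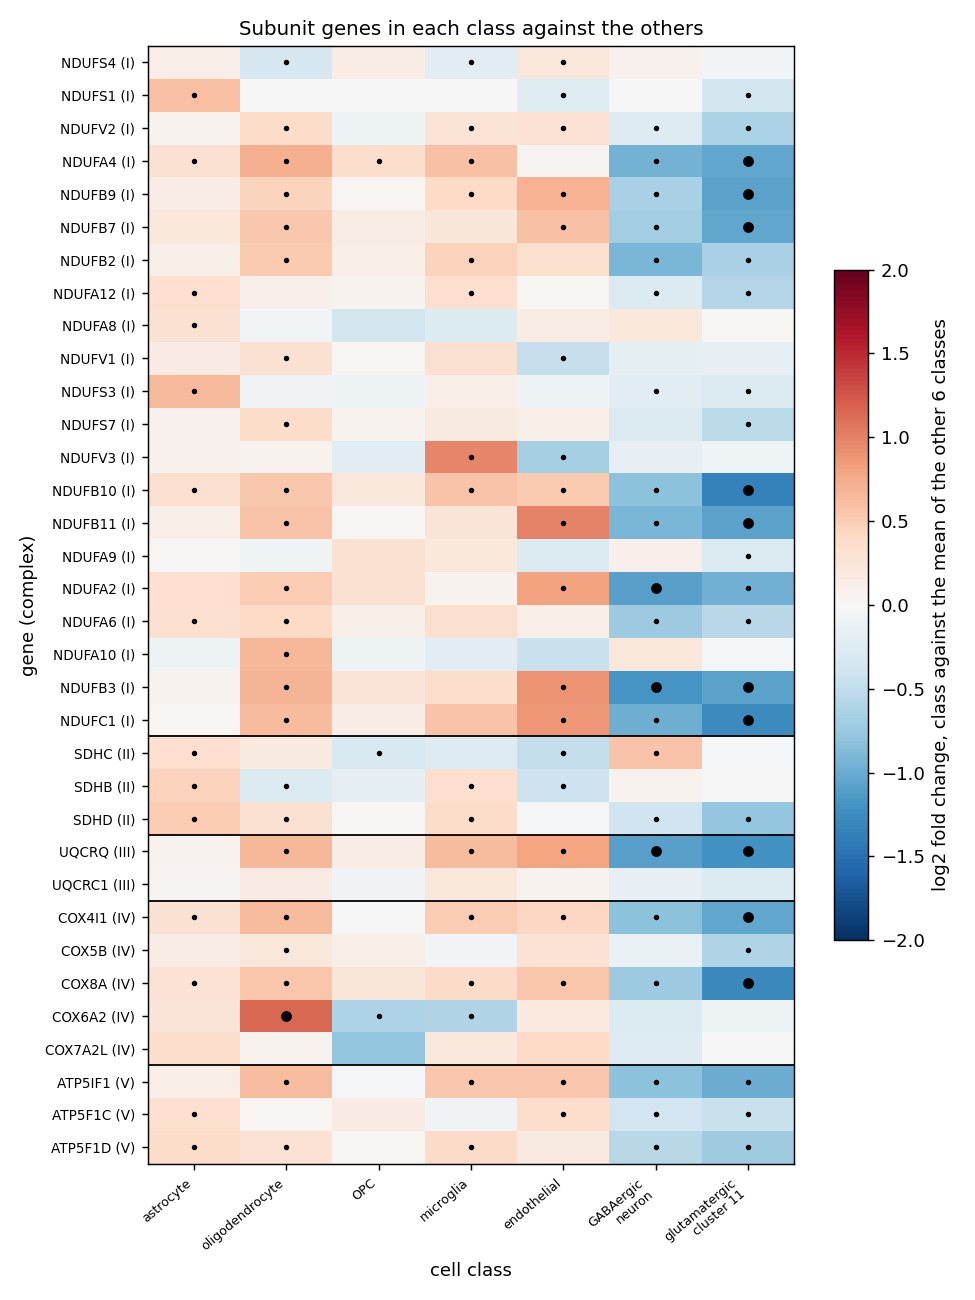
Log2 fold change of 34 of the 35 members (rows, with the complex of the symbol in brackets and lines between complexes) in each class against the mean of the other 6 classes (columns), from -2 (blue) to 2 (red). Small dots mark members that passed at an adjusted p under 0.05, and large dots those that also reached 2-fold, which are 10 in glutamatergic cluster 11, 3 in GABAergic cells and 1 in oligodendrocyte-like cells.

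In oligodendrocyte-like cells 23 members passed as higher (27.1% of all genes) and 2 as lower (32.4% of all genes), with a median of 0.36, beside -0.055 for all genes. COX6A2 was called higher and no member lower, against 8.7% and 14.5% of all genes. COX6A2 encodes the isoform of a complex IV subunit best known from heart and skeletal muscle. It stood at 24.1, 19.9 and 16.5 CPM in the oxygen libraries and 29.3, 32.4 and 36.9 CPM in the sevoflurane libraries. All 6 values exceeded its mean of 12.1 CPM in the other classes (log2 fold change 1.15 ± 0.12 SE, edgeR adjusted p = 1.33e-10). The other leading members were NDUFA4 at 0.71, NDUFB3 at 0.68 and UQCRQ at 0.67. The members that passed as lower were NDUFS4 (-0.34) and SDHB (-0.27).

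In microglia-like cells 14 members passed as higher (26.2% of all genes) and 2 as lower (28.4% of all genes). None was called, against 12.2% of all genes called higher and 15% lower. Without TMM factors 23 passed as higher (33.8% of all genes), none as lower (22.0% of all genes), and 1 was called. That member was NDUFV3, an accessory subunit of the NADH-binding part of complex I, with a log2 fold change of 0.98 ± 0.13 SE (edgeR adjusted p = 1.53e-08) and 1.14 without TMM factors. It stood at 64.4, 57.7 and 62.0 CPM in the oxygen libraries and 43.5, 50.6 and 62.7 CPM in the sevoflurane libraries, all above its mean of 25.5 CPM in the other classes. UQCRQ (0.63), NDUFA4 (0.59), NDUFB10 (0.57), ATP5IF1 (0.55) and COX4I1 (0.51) followed. COX6A2 (-0.60) and NDUFS4 (-0.21) passed as lower, and neither did without TMM factors (-0.44 and -0.046). COX6A2 did not pass the filter on low counts within microglia-like cells alone.

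In endothelial-like cells 14 members passed as higher (25% of all genes) and 6 as lower (28.9% of all genes). None was called, against 13.7% of all genes called higher and 14.3% lower. Without TMM factors 18 passed as higher (35.4% of all genes) and none as lower (18.4% of all genes), and 5 were called, against none with them. The highest, just under 2-fold, was NDUFB11, an accessory membrane subunit of complex I, with 53.8, 55.0 and 48.5 CPM in the oxygen libraries and 48.3, 35.8 and 48.6 CPM in the sevoflurane libraries. All 6 values lay above its mean of 23.6 CPM elsewhere (log2 fold change 1.00 ± 0.18 SE, edgeR adjusted p = 9.9e-06). NDUFB3 (0.90), NDUFC1 (0.87), NDUFA2 (0.81) and UQCRQ (0.78) followed, of which NDUFC1 did not pass the filter on low counts within this class alone. Among the members that passed as lower were NDUFV3 (-0.66), SDHC (-0.48), NDUFV1 (-0.46), SDHB (-0.41) and NDUFS1 (-0.24). For NDUFS1 this direction rested on the scaling, since without TMM factors it stood at 0.021, and its CPM was below that of the other classes in 2 of 6 libraries.

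In astrocyte-like cells 15 members passed as higher (27% of all genes), and none passed as lower (26.9% of all genes). None was called, against 12.2% of all genes called higher and 10.8% lower. The largest differences were those of NDUFS3 and NDUFS1. NDUFS3, a core subunit of the matrix arm of complex I, stood at 42.4, 61.0 and 60.7 CPM in the oxygen libraries and 53.6, 54.3 and 36.3 CPM in the sevoflurane libraries. It had a log2 fold change of 0.65 ± 0.10 SE (edgeR adjusted p = 6.42e-07). NDUFS1, the largest core subunit, stood at 116, 153 and 117 CPM in the oxygen libraries and 147, 152 and 121 CPM in the sevoflurane libraries. It had a log2 fold change of 0.60 ± 0.065 SE (edgeR adjusted p = 2.04e-10). Both were above the mean of the other classes in 6 of 6 libraries. All 3 members of complex II passed as higher, SDHD at 0.51, SDHB at 0.47 and SDHC at 0.33. Without TMM factors 11 members passed as higher (25.9% of all genes) and none as lower (28.3% of all genes).

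In OPC-like cells 1 member passed as higher (20.8% of all genes), which was NDUFA4 (0.35), and 2 as lower (19.1% of all genes), which were COX6A2 (-0.62) and SDHC (-0.31). None was called, against 9.56% of all genes called higher and 6.77% lower. Without TMM factors none passed as higher (18.6% of all genes) and 4 as lower (22.5% of all genes). COX6A2 was thus high in mature oligodendrocyte-like cells (26.5 ± 7.76 CPM) and low in their precursors (8.66 ± 2.66 CPM, SD, n = 6 each). In OPC-like cells the level rests on low counts, and COX6A2 did not pass the filter on low counts within that class alone.

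The core and the accessory subunits of complex I were set side by side after these values were seen, as a description with no test. NDUFA4 was left out, which leaves 6 core and 15 accessory genes. In GABAergic cells the core genes had a median log2 fold change of -0.23 and the accessory genes -0.69. In glutamatergic cluster 11 the medians were -0.40 and -0.64. In endothelial-like cells they were -0.17 and 0.32. So the accessory genes lay farther from 0 in the neurons, and in endothelial-like cells the groups lay on opposite sides of it, though without TMM factors the endothelial medians were 0.090 and 0.58. In oligodendrocyte-like cells the medians were 0.33 and 0.51, in microglia-like cells 0.16 and 0.32, and in astrocyte-like cells 0.17 and 0.14.

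The cytosolic ribosomal protein genes had a median on the same side as the members in both neuron groups and in endothelial-like, microglia-like and oligodendrocyte-like cells. Of 58 tested, 57 passed as lower in GABAergic cells (31.5% of all genes, median log2 fold change -1.11) and 57 in glutamatergic cluster 11 (32.8% of all genes, -1.23). In endothelial-like cells 57 passed as higher (25% of all genes), with a median of 1.64, against 0.19 for the members. In microglia-like and oligodendrocyte-like cells 42 and 44 passed as higher (26.2% and 27.1% of all genes), with medians of 0.45 and 0.37. In astrocyte-like and OPC-like cells the sides differed, with medians of -0.063 and -0.045, against 0.21 and 0.044 for the members. The part of these genes, and of the depth per cell given above, in the members' differences was not tested. With library size and TMM factors computed without the ribosomal protein genes and the members, the median of the members in GABAergic cells was -0.28 and in cluster 11 -0.59.

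The 24 subunit genes named only by the gene name table, among them SDHA, UQCRB, UQCRFS1 and ATP5MC3, stood on the same side as the members. In glutamatergic cluster 11, 21 of 24 passed as lower (32.8% of all genes), with a median of -0.88, and 9 of these were called (15% of all genes). In GABAergic cells 20 passed as lower (31.5% of all genes) and 2 as higher (32.7% of all genes), with a median of -0.64. In oligodendrocyte-like cells 16 passed as higher (27.1% of all genes) and 2 as lower (32.4% of all genes), with a median of 0.42. In microglia-like cells 16 passed as higher (26.2% of all genes) and none as lower (28.4% of all genes), with a median of 0.41. COX7A1, an isoform of a complex IV subunit known from muscle and fat, was called higher in endothelial-like cells and lower in both neuron groups.

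Other genes around the chain were counted in the same way. Of all genes, 31.5% passed as lower and 32.7% as higher in GABAergic cells, and 32.8% and 31.1% in cluster 11. These shares were 32.4% and 27.1% in oligodendrocyte-like cells and 26.9% and 27% in astrocyte-like cells. Across the classes 6.77 to 15% of all genes were called lower and 8.7 to 13.7% higher. Of 14 complex I assembly factors, 5 passed as lower and 3 as higher in GABAergic cells (35.7% and 21.4%). In glutamatergic cluster 11, 4 passed each way (28.6%), near the shares of all genes, and in oligodendrocyte-like cells 1 as lower and 6 as higher. The factor called in astrocyte-like cells was NUBPL, which inserts iron-sulfur clusters into complex I and was higher there. Of 27 assembly factors of complexes II to V, 11 passed as lower and 4 as higher in cluster 11, where COX17, SCO2 and SURF1, which serve the assembly of complex IV, were called lower. Of 15 regulators of mitochondrial biogenesis, PPARGC1A, a transcriptional coactivator of the mitochondrial programme, was called higher in astrocyte-like and OPC-like cells and lower in endothelial-like, microglia-like and oligodendrocyte-like cells. Of 17 genes of the tricarboxylic acid cycle, which feeds the chain, 7 passed as higher and none as lower in astrocyte-like cells. SUCLG2, a subunit of succinyl-CoA ligase, was called higher in astrocyte-like, endothelial-like and microglia-like cells and lower in both neuron groups. Of 19 genes of glycolysis and lactate handling, 11 passed as higher and 4 as lower in astrocyte-like cells, and 7 and 9 in cluster 11. ENO2, the neuronal enolase, and PFKP were called higher in both neuron groups, and GAPDH and ALDOA were called lower there. Of 13 genes of ADP exchange, uncoupling and antioxidant defence, GPX4, PRDX3, SLC25A6 and SOD1 were called lower in cluster 11.

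Isoform pairs were read from pooled counts, with exact Clopper-Pearson 95% intervals that cover counting error only. COX4I2 encodes the oxygen-regulated isoform of subunit IV of cytochrome c oxidase. Over all kept cells it gave 120 of 11409 UMIs of COX4I1 and COX4I2, a share of 1.05%. In mural-like cells (pericytes and smooth muscle) it gave 6 of 45 UMIs, 13.3% (interval 5.05 to 26.8%), and in endothelial-like cells 18 of 263, 6.84% (4.11 to 10.6%). Across libraries the endothelial share ran from 2.33 to 17.9%, and the mural-like share from 0 to 28.6%. Both intervals lay above those of GABAergic, OPC-like, astrocyte-like, microglia-like and oligodendrocyte-like cells. The endothelial interval overlapped that of glutamatergic cluster 11, where the share was 2.30% (8 of 348, 0.998 to 4.48%). Mural markers were also higher in endothelial-like cells than in the other compared classes. Of 6 tested, 6 were positive (median log2 fold change 2.97) and 5 were called, as were 5 of 5 fibroblast markers (13.7% of all genes were called higher). Their part in the endothelial share of COX4I2 was not tested. Astrocyte-like cells gave 9 of 1149 (0.783%) and oligodendrocyte-like cells 8 of 1631 (0.490%). Microglia-like cells gave 0 of 383 UMIs, which allows a share of up to 0.783% (3 counts of the total), or up to 0.959% by the exact interval. COX8C, a minor isoform of a small complex IV subunit, gave 15 of 4583 UMIs of COX8A and COX8C (0.327%), with 5 of 597 in oligodendrocyte-like cells and 8 of 2289 in glutamatergic neuron-like cells. COX7B2 had 11 UMIs in all.

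**Figure D3:**
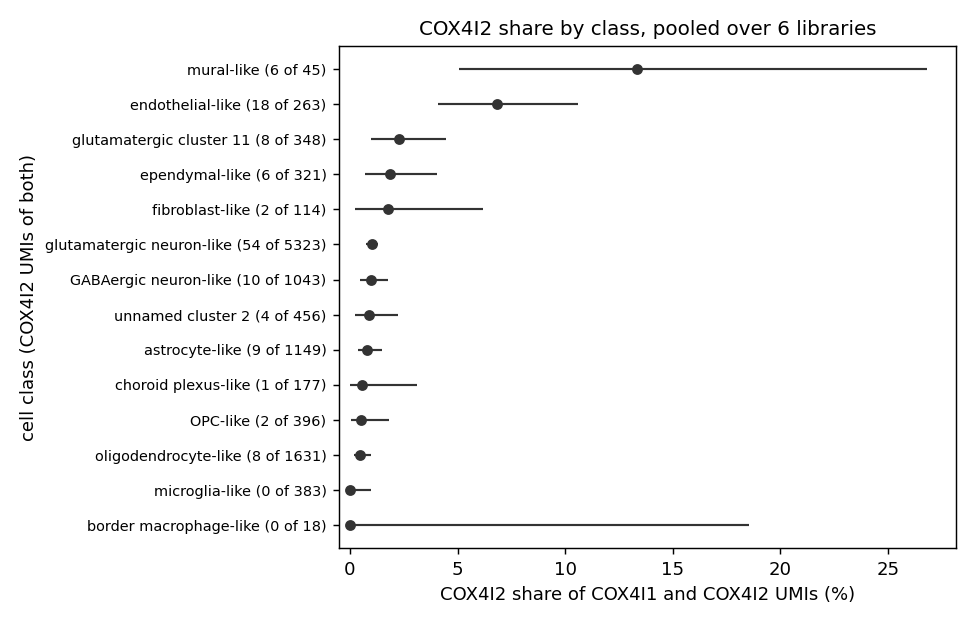
Share of COX4I2 among the UMIs of COX4I1 and COX4I2 (horizontal axis, %) in each class, pooled over 6 libraries, with exact 95% intervals as bars and the counts beside each name. Mural-like (13.3%) and endothelial-like cells (6.84%) lie highest, and the wide bars of the small classes show how few UMIs they rest on.

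Classes with few cells were not tested and are given as levels. Mural-like cells held 1926, 1954 and 2126 CPM in the oxygen libraries and 1775, 3235 and 1467 CPM in the sevoflurane libraries over all members, and sevoflurane 2 was the highest library. Fibroblast-like cells held 1961 CPM, ependymal-like cells 1589.7 CPM and border macrophage-like cells 2009 CPM as means over 6 libraries. Choroid plexus-like cells were counted in 3 libraries, and 503 of 521 came from sevoflurane 1. In sevoflurane 1 these cells held 56.2 CPM of NDUFA8 and 28.1 CPM of NDUFV3. All glutamatergic neuron-like cells together, cluster 11 among them, held 865, 881 and 1073 CPM in the oxygen libraries and 1018, 1152 and 932 CPM in the sevoflurane libraries, though, as given above, the cells of sevoflurane 3 lay mostly in other clusters than those of the other libraries. The unnamed cluster 2 had 1754 cells of low depth (median 858 UMIs), led by CHGB, HPCA and other neuronal genes with GAPDH and HSP90AA1. It held 2326, 1906 and 2749 CPM in the oxygen libraries and 3406, 4763 and 1594 CPM in the sevoflurane libraries, more than the glutamatergic neuron-like cells in every library.

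Sevoflurane was compared with oxygen inside each class, over 3 libraries against 3. In 231 tests of members in 7 classes, edgeR's quasi-likelihood test called none at an adjusted p under 0.05, and DESeq2 also called none. At an unadjusted p under 0.05 there were 6 tests of members, 2.60%, beside 8.43% of 69273 tests of all genes. DESeq2 called 1.3% of all genes in GABAergic cells, 0.281% in OPC-like, 0.381% in astrocyte-like, 0.0213% in endothelial-like, 0.623% in microglia-like and 0.349% in oligodendrocyte-like cells and 2.34% in cluster 11. The share of all genes called by edgeR was 0.114% in GABAergic cells, 0.033% in OPC-like, 0.018% in astrocyte-like, 0% in endothelial-like, 0.0913% in microglia-like and 0.0171% in oligodendrocyte-like cells and 0.909% in glutamatergic cluster 11. These shares moved with single libraries: in cluster 11, 91 of 10015 genes were called with all libraries, 251 of 9491 without sevoflurane 3, and 0 to 33 with any other library left out. A missed threshold does not show that levels were equal: the standard errors below leave room for changes of the sizes given.

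NDUFV1, the core subunit that binds NADH, had the smallest p of the members in both neuron groups. In GABAergic cells it stood at 24.9, 19.9 and 25.4 CPM in the oxygen libraries and 29.9, 49.7 and 36.1 CPM in the sevoflurane libraries. Each sevoflurane library lay above every oxygen library, as for 12.8% of all genes. The log2 fold change was 0.65 ± 0.20 SE (edgeR adjusted p = 0.251), and 0.69 without sevoflurane 3. In glutamatergic cluster 11 NDUFV1 stood at 21.9, 17.0 and 26.3 CPM in the oxygen libraries and 23.2, 39.6 and 45.1 CPM in the sevoflurane libraries. Here sevoflurane 1 lay within the oxygen range (log2 fold change 0.71 ± 0.27 SE, edgeR adjusted p = 0.283). In OPC-like cells it stood at 26.6, 26.4 and 40.1 CPM in the oxygen libraries and 45.4, 46.8 and 33.8 CPM in the sevoflurane libraries, with overlap (0.43). In astrocyte-like cells it stood at 36.4, 34.1 and 36.9 CPM in the oxygen libraries and 43.3, 61.7 and 29.3 CPM in the sevoflurane libraries, where sevoflurane 3 was the lowest of all (0.30). Across the classes its log2 fold change was also positive in endothelial-like cells (0.32), where it was -0.0034 without sevoflurane 3.

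The other members with a small p in neurons were of several complexes. In GABAergic cells SDHC had a log2 fold change of 0.45 ± 0.22 SE, which fell to 0.12 without sevoflurane 3. COX7A2L stood there at 4.76, 4.58 and 3.69 CPM in the oxygen libraries and 6.13, 6.73 and 6.75 CPM in the sevoflurane libraries, with no overlap (0.52 ± 0.26 SE, edgeR adjusted p = 0.497). COX7A2L passed the filter on low counts in 4 of 7 classes. On the negative side NDUFB7 (-0.35), NDUFV3 (-0.27) and NDUFV2 (-0.16) had the smallest p, and their groups overlapped. In cluster 11 ATP5F1D, a subunit of the ATP synthase stalk, stood at 9.62, 10.98 and 11.4 CPM in the oxygen libraries and 18.0, 20.7 and 12.8 CPM in the sevoflurane libraries. The groups did not overlap, as for 14.4% of all genes (log2 fold change 0.55 ± 0.29 SE, edgeR adjusted p = 0.472). NDUFA12 (-0.48), NDUFA8 (-0.39) and NDUFB3 (-0.66) were the leading members below 0.

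In microglia-like cells the members spread widely after sevoflurane. COX8A stood at 27.9, 28.0 and 31.0 CPM in the oxygen libraries and 65.2, 61.6 and 12.5 CPM in the sevoflurane libraries. Sevoflurane 1 and 2 lay above every oxygen library and sevoflurane 3 lay below them all. The log2 fold change was 0.78 ± 0.46 SE (edgeR adjusted p = 0.882), and 1.14 without sevoflurane 3 (edgeR adjusted p = 0.217). COX4I1 stood at 96.7, 82.4 and 100.04 CPM in the oxygen libraries and 146, 163 and 55.2 CPM in the sevoflurane libraries, split in the same way (0.45, and 0.75 without sevoflurane 3). UQCRQ stood at 36.5, 37.9 and 57.8 CPM in the oxygen libraries and 68.8, 94.7 and 22.6 CPM in the sevoflurane libraries, again with sevoflurane 3 lowest (0.55, and 0.86 without it). NDUFS4, in contrast, stood at 142, 138 and 125 CPM in the oxygen libraries and 111, 108 and 110.3 CPM in the sevoflurane libraries. All 3 sevoflurane libraries lay below all oxygen libraries, as for 7.59% of all genes, and sevoflurane 3 did not stand apart (log2 fold change -0.25 ± 0.17 SE, edgeR adjusted p = 0.92). SDHB (-0.29) and NDUFV3 (-0.21) were the other leading members below 0, with overlap.

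In oligodendrocyte-like cells COX6A2 stood at 24.1, 19.9 and 16.5 CPM in the oxygen libraries and 29.3, 32.4 and 36.9 CPM in the sevoflurane libraries. Every sevoflurane library exceeded every oxygen library, as for 7.91% of all genes (log2 fold change 0.68 ± 0.21 SE, edgeR adjusted p = 0.524), and without sevoflurane 3 the value was 0.55. NDUFS3 (0.46) followed with overlap. NDUFS7 (-0.21), NDUFA12 (-0.17) and ATP5F1C (-0.085) led below 0, and all 3 turned positive without sevoflurane 3 (0.14, 0.18 and 0.077).

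In endothelial-like cells NDUFA2 stood at 36.7, 66.6 and 43.5 CPM in the oxygen libraries and 16.1, 25.6 and 25.3 CPM in the sevoflurane libraries. The groups did not overlap, as for 6.99% of all genes in this direction (log2 fold change -1.04 ± 0.39 SE, edgeR adjusted p = 1). SDHD stood at 24.4, 17.4 and 18.4 CPM in the oxygen libraries and 41.9, 46.1 and 27.2 CPM in the sevoflurane libraries, with all sevoflurane libraries above all oxygen libraries, as for 3.59% of all genes (log2 fold change 0.93 ± 0.39 SE, edgeR adjusted p = 1). NDUFA8 stood at 68.5, 66.6 and 51.8 CPM in the oxygen libraries and 48.3, 25.6 and 35.0 CPM in the sevoflurane libraries, and the groups did not overlap (-0.68). NDUFA12 also did not overlap (-0.56), and NDUFS1 did (0.25). Markers of other cell types moved beside these values in the endothelial-like cells. All 6 tested oligodendrocyte markers were positive (median log2 fold change 0.52), as were 5 of 6 astrocyte (0.56) and 7 of 7 pan-neuron markers (0.20), while 10 of 12 endothelial markers were negative (-0.40). Their part in the members' values was not tested. In OPC-like cells NDUFB10 stood at 28.6, 30.5 and 50.6 CPM in the oxygen libraries and 21.2, 29.2 and 6.14 CPM in the sevoflurane libraries. Only sevoflurane 3 lay far below the rest (log2 fold change -0.92 ± 0.38 SE, edgeR adjusted p = 0.725), and without it the value was -0.59. NDUFS7 (-0.63), ATP5F1D (-0.33), ATP5F1C (0.36) and SDHC (0.20) were the next OPC-like members. In astrocyte-like cells no member had an unadjusted p under 0.05, and the leading members besides NDUFV1 were SDHC (0.18), NDUFA8 (0.20), NDUFB7 (-0.32), UQCRC1 (-0.19) and NDUFS3 (-0.20).

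The number of members whose groups did not overlap was read against the same share of all genes. In GABAergic cells 4 of 35 members lay higher without overlap (12.8% of all genes) and 0 lower (5.22%). In glutamatergic cluster 11, 3 of 34 members lay higher without overlap (14.4% of all genes) and 0 lower (6.9%). In endothelial-like cells 1 of 29 members lay higher without overlap (3.59% of all genes) and 3 lower (6.99%). In OPC-like cells 2 of 32 members lay higher without overlap (6.81% of all genes) and 0 lower (4.94%). In microglia-like cells 0 of 32 members lay higher without overlap (4.73% of all genes) and 2 lower (7.59%). In oligodendrocyte-like cells 1 of 35 members lay higher without overlap (7.91% of all genes) and 0 lower (5.98%), and in astrocyte-like cells 0 of 34 members lay higher without overlap (6.15% of all genes) and 0 lower (6.54%). The share of members was below that of all genes in each of these classes and directions except the lower members of endothelial-like cells, where it was above.

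As a group the members stood near 0. Their median log2 fold change was -0.050 in GABAergic cells, -0.046 in OPC-like, 0.054 in astrocyte-like, -0.052 in endothelial-like, 0.093 in microglia-like and 0.11 in oligodendrocyte-like cells and 0.044 in cluster 11, beside medians of all genes between -0.0031 and 0.029. The members with a positive value were 16 of 35 in GABAergic cells (50.5% of all genes), 12 of 32 in OPC-like cells (50.9% of all genes), 21 of 34 in astrocyte-like cells (49.6% of all genes) and 11 of 29 in endothelial-like cells (53.6% of all genes). They were 23 of 32 in microglia-like cells (53.8% of all genes), 28 of 35 in oligodendrocyte-like cells (51.5% of all genes) and 18 of 34 in cluster 11 (51.2%). Without sevoflurane 3 the medians were 0.12, 0.15, 0.21, 0.075, 0.28, 0.40 and 0.19 in the same order, beside medians of all genes between -0.0097 and 0.027. In oligodendrocyte-like cells 35 of 35 members were positive without it, beside 6141 of 12022 of all genes. No member was called in any class without that library either, while over all genes edgeR then called 251 in cluster 11, 21 in GABAergic cells, 10 each in OPC-like and microglia-like cells, 3 in oligodendrocyte-like cells, 4 in astrocyte-like cells and 0 in endothelial-like cells. The ribosomal protein genes moved alike: without sevoflurane 3 their median was 0.50 in microglia-like and 0.44 in oligodendrocyte-like cells, against 0.20 and 0.086 with it.

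**Figure D4:**
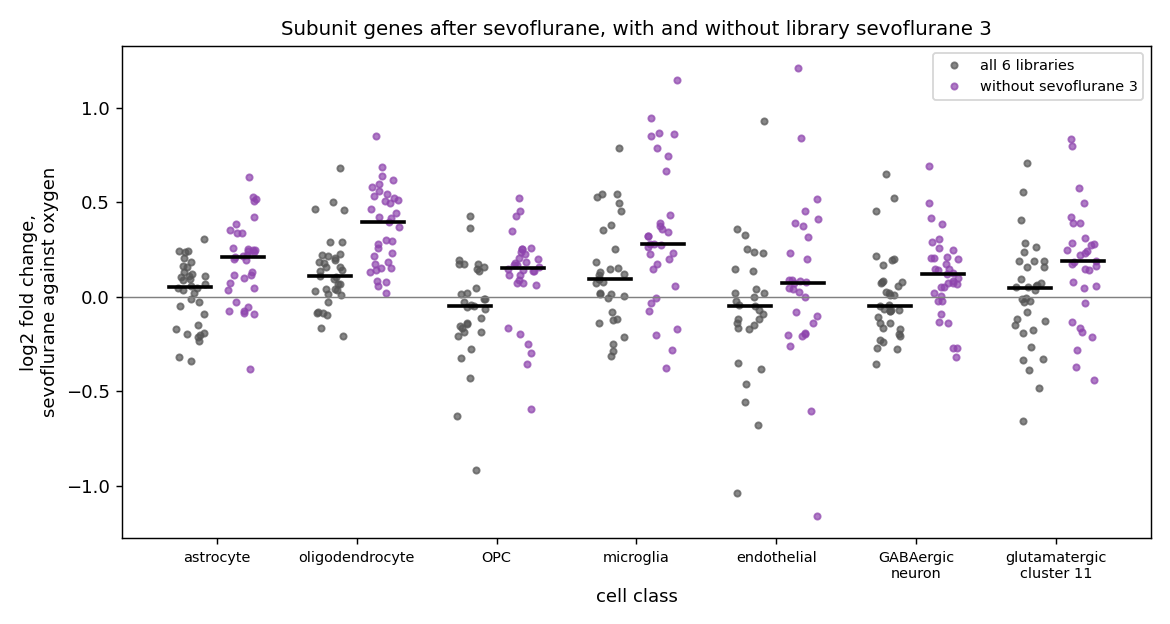
Log2 fold change of sevoflurane against oxygen (vertical axis) for each member tested in each class, with all 6 libraries (grey) and without sevoflurane 3 (purple), and a line at each median. The medians lie between -0.052 and 0.11 with all libraries, and higher in every class without sevoflurane 3, up to 0.40 in oligodendrocyte-like cells.

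By complex, in microglia-like cells the 3 tested members of complex IV had a median log2 fold change of 0.45 and the 2 of complex III 0.20, beside 0.094 for 21 of complex I, 0.015 for complex II and 0.092 for complex V. Without sevoflurane 3 these were 0.75, 0.50, 0.32, 0.056 and 0.26. Summed over complex IV, these cells held 195, 181 and 229.7 CPM in the oxygen libraries and 310.3, 304 and 145 CPM in the sevoflurane libraries. The sevoflurane libraries lay on both sides of the oxygen libraries. In oligodendrocyte-like cells the medians by complex ran from -0.083 (complex V) to 0.15 (complex I), and without sevoflurane 3 from 0.15 (complex II) to 0.49 (complex III), with complex V at 0.30 and complex I at 0.38. In GABAergic cells they ran from -0.13 (complex III) to 0.17 (complex II), and without sevoflurane 3 from 0.076 (complex I) to 0.20 (complex V), with complex III at 0.085 and complex II at 0.12. In astrocyte-like cells complex III stood lowest, at -0.26, and at 0.0064 without sevoflurane 3. Among complex I assembly factors, assembly factors of the other complexes, biogenesis regulators, tricarboxylic acid cycle, glycolysis and uncoupling genes, edgeR called none in any of the 7 classes, with at most 3 genes per list and class at an unadjusted p under 0.05, while DESeq2 called at most 1. In the unnamed cluster 2, 30 of 31 members were positive (median 0.46), beside 2587 of 5041 of all genes (median 0.011). No member was called there by edgeR, which called no gene at all. There 1 member had an unadjusted p under 0.05, and DESeq2 called none. In that cluster 55 of 55 ribosomal protein genes were positive too (median 0.54).

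Whether the response differed between classes was tested with limma on differences within libraries, each class against the mean of the other 6, over 12336 genes. No member and no gene passed (0% in each class), and 556 to 939 of all genes per class had an unadjusted p under 0.05. Among the members this held for 2 of 35 members in oligodendrocyte-like cells, 1 in each of OPC-like, astrocyte-like and endothelial-like cells and cluster 11, and 0 in GABAergic and microglia-like cells. The smallest p was that of NDUFB10 in OPC-like cells (difference of log2 fold changes -1.13 ± 0.24 SE, limma adjusted p = 0.567). COX6A2 in oligodendrocyte-like cells had the smallest p in its class (0.66 ± 0.17 SE, limma adjusted p = 0.614), and SDHD in endothelial-like cells in its class (0.89 ± 0.33 SE, limma adjusted p = 0.975). So none of the values above is shown to be particular to a class.

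The spread between the sevoflurane libraries was uneven across members. Sevoflurane 3 was the lowest of 6 libraries for 27 of 32 members in microglia-like cells (84.4%, beside 24.8% of all genes tested there), for 28 of 35 in oligodendrocyte-like cells (80.0% beside 27.2%), for 24 of 34 in astrocyte-like cells (70.6% beside 26.7%) and for 22 of 32 in OPC-like cells (68.8% beside 24.8%). It was lowest for 17 of 35 in GABAergic cells (48.6% beside 21.7%), 9 of 29 in endothelial-like cells (31.0% beside 15.9%) and 8 of 34 in cluster 11 (23.5% beside 15.1%). The summed level of the members in sevoflurane 3 was 0.590 times the mean of the other 5 libraries in oligodendrocyte-like cells, 0.603 times in microglia-like, 0.670 times in OPC-like and 0.691 times in astrocyte-like cells. It was 0.786 times in endothelial-like cells, 0.924 times in cluster 11 and 0.9497 times in GABAergic cells. The glial sums were thus low and the neuron sums near the other libraries, though the complexes of the neurons lay on both sides. In GABAergic cells complex II stood at 1.45 times, against 0.876, 0.703, 0.778 and 0.6799 times for complexes I, III, IV and V. In cluster 11 complex II stood at 1.19 times and complex V, the lowest, at 0.747 times. The ribosomal protein genes of sevoflurane 3 stood at 0.432 times the other libraries in oligodendrocyte-like, 0.426 times in microglia-like and 0.718 times in GABAergic cells. Its median depth per cell was the highest of the 6 libraries in microglia-like (2159 UMIs), oligodendrocyte-like (2186), OPC-like (3254.5) and astrocyte-like cells (3030). It was the lowest in GABAergic cells (5435), and in endothelial-like cells and cluster 11 it lay between other libraries. Counted per cell, the members gave 2.87 UMIs in its microglia-like, 2.79 in its oligodendrocyte-like and 3.61 in its OPC-like cells. Oxygen 1, the next lowest, gave 3.08, 2.96 and 3.66. In astrocyte-like cells they gave 4.13, above the 3.60 of oxygen 1. Its oligodendrocyte-like cells lay mostly in cluster 4. The part of these in the result was not tested.

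**Figure D5:**
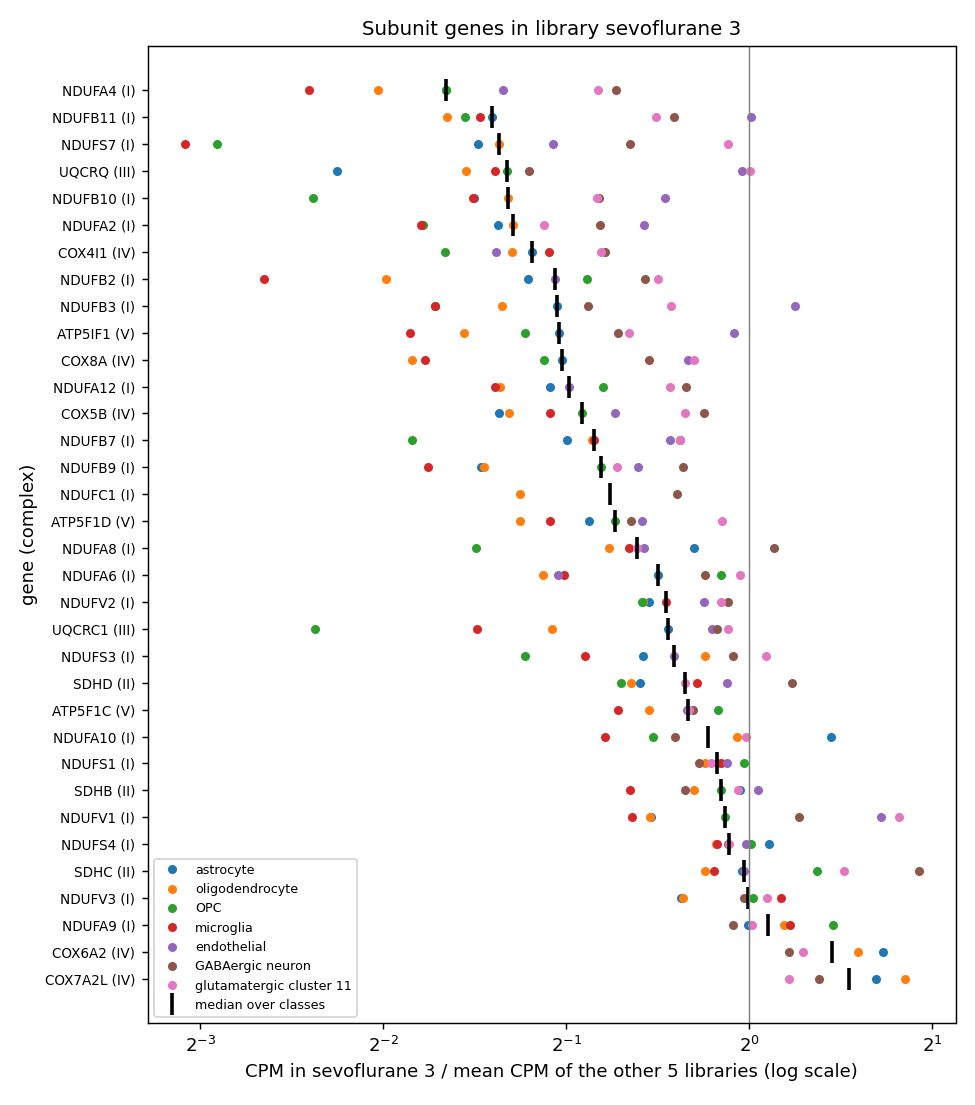
Ratio of the CPM in sevoflurane 3 to the mean CPM of the other 5 libraries (log axis) for 34 of the 35 members, with 1 point per class in which the member was tested and a bar at the median over classes. Medians run from 0.317 for NDUFA4 to 1.46 for COX7A2L, and the points of microglia-like and oligodendrocyte-like cells lie farthest to the left for many members.

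The members were not lowered evenly in sevoflurane 3. The median ratio over classes was 0.317 for NDUFA4, 0.377 for NDUFB11, 0.387 for NDUFS7, 0.399 for UQCRQ, 0.401 for NDUFB10 and 0.439 for COX4I1. COX4I1, NDUFB2, NDUFB10 and NDUFA12 were lowest in this library in 7 of 7 classes. NDUFA4 stood at 64.4, 51.1 and 100.04 CPM in the oxygen libraries and 115, 134 and 17.5 CPM in the sevoflurane libraries of microglia-like cells, so that sevoflurane 3 held the lowest value and the other 2 sevoflurane libraries the highest. At the other end the ratio was 0.980 for SDHC, 0.997 for NDUFV3, 1.07 for NDUFA9, 1.37 for COX6A2 and 1.46 for COX7A2L. Of these, SDHC, NDUFA9, COX6A2 and COX7A2L were lowest in sevoflurane 3 in no class in which they were tested. Complex II as a whole ran from 0.760 times the other libraries in microglia-like cells to 1.45 times in GABAergic cells. The members with the least range between classes (SDHB, NDUFS4 and SDHC, with ratios of 0.899, 0.924 and 0.980) were near the other libraries in sevoflurane 3, apart from NDUFA8 at 0.653. Those with the widest range (UQCRQ, NDUFC1, NDUFB3, NDUFB11 and COX8A, at 0.399, 0.589, 0.482, 0.377 and 0.492) were among the lowered, NDUFC1 from only 2 classes. Other members did not follow this order, and a link between range and ratio was not tested. NDUFS7, with a range of 2.09 between classes, stood at 0.387. COX6A2 (range 3.06), NDUFV3 (2.61) and COX7A2L (2.54) stood at 1.37, 0.997 and 1.46.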

How the data were processed

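The authors deposited 1 matrix of UMI counts per library, whole numbers that were not normalised, with a row per gene and a column per barcode. Per the submitters' processing notes, base calls were made with CASAVA 1.8, reads were counted with Cell Ranger and the authors clustered cells with Seurat. The matrix header names version 6.1.1 of Cell Ranger. Genome build and annotation were not given in the sources used here. Members, gene lists and comparisons were chosen with earlier results of these data known.

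All barcodes had at least 500 UMIs and 200 genes. Scrublet scores (scanpy 1.11.5) above 0.190 marked 4.49 to 5.93% of barcodes per library as doublets; this is the median of the automatic thresholds, set after they were seen, since that of sevoflurane 2 was 0.567. For clustering only, each cell was scaled to 10000 counts and put on a log scale. On 2000 variable genes, from which the members were left out, 30 principal components and 15 neighbours fed the Leiden method (igraph 0.11.9) at resolution 1, which returned 33 clusters. A cluster was named where at least 3 markers of its best list were found in at least 10% of cells and the second list stayed under 0.6 of the best. Outside the neurons the best list also had to reach a score of 0.25. Neuron clusters were held to a minimum neuron score of 0.35 instead, and GABAergic cluster 3 was named at a best score of 0.2147. Clusters under 50 cells, with low depth and no leading marker, or with leading genes of another class stayed unnamed. All of these cut-offs were chosen with the data at hand. This named 26 clusters in 12 classes and left 2070 cells unnamed.

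Counts were summed per library and class and tested with edgeR 4.0.16 (filterByExpr, TMM, quasi-likelihood F test, R 4.3.3), with library as a block between classes and no covariate between treatments. P-values were adjusted after Benjamini and Hochberg over all genes of a comparison. Responses were compared between classes with limma 3.58.1, and DESeq2 1.42.0 was an alternative. The fits were also run on simulated data in which no library stood apart. That run does not measure their power for the changes described here. Depth sets the precision: in microglia-like cells a library held 398902 to 828279 UMIs. The F value of each test gave the standard error of its fold change. Named in the text were members called in a class, the 3 with the smallest p per direction and class, the leading members of each complex by level, the isoform groups, NDUFA4, COX7A2L and ATP5IF1. Alternatives changed the test, the scaling, the filters, doublets, clustering and the libraries used. Promoter motifs were not analysed here, and the values of 1 member are not reported here, though it enters the counts, sums and medians.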

Additional observations from a re-analysis of the deposited data

How the results depend on the processing

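In the comparison of sevoflurane with oxygen, the count of members called stayed at 0 in all 7 classes under each of the 15 alternatives run. The medians over the members were less steady. Without sevoflurane 3 they turned from negative to positive in GABAergic (-0.050 to 0.12), OPC-like (-0.046 to 0.15) and endothelial-like cells (-0.052 to 0.075). Leaving out single libraries moved these medians between -0.22 (OPC-like cells) and 0.40 (oligodendrocyte-like cells). The replicate numbers of the titles were not taken as pairs, since in no class did all 3 same-numbered pairs deviate together. With 3 libraries per group this cannot show whether the libraries were paired by animal or batch. With a replicate block 0 members were called and the medians were -0.054 to 0.067. Calls over all genes varied more: edgeR called 0 to 91 per class, DESeq2 4 to 254, no filter on low counts 55 to 750 and the replicate block 0 to 42. With a library left out edgeR called 0 to 251 in cluster 11, where 251 were called without sevoflurane 3, 0 without sevoflurane 1, 33 without oxygen 1, 21 without oxygen 2 or 3 and 25 without sevoflurane 2. In GABAergic cells it called 21 without sevoflurane 3 and 0 without any other library. Against the other classes, the members called lower in GABAergic cells were 3, 7 without TMM factors, and 3 to 6 with a library left out. In glutamatergic cluster 11 leaving out a library gave 4 to 12. In endothelial-like cells 0 were called higher, but 5 without TMM factors, 0 to 3 with a library left out, and 1 each without the filter, with scaling without ribosomal protein genes and members, at resolution 0.5, with members among the variable genes and with cells of at least 1000 UMIs. In microglia-like cells 1 was called higher without TMM factors, and 0 to 1 with a library left out. Of the named members' values after sevoflurane, these changed sign: NDUFV2 in GABAergic cells (0.025 with doublets kept), and, with single libraries left out, NDUFA8 in astrocyte-like cells (-0.013 without sevoflurane 1, up to 0.34), NDUFS1 in endothelial-like cells (-0.037 without sevoflurane 2, up to 0.42), NDUFV1 there (-0.0034 without sevoflurane 3, up to 0.52), and in oligodendrocyte-like cells ATP5F1C (-0.18 to 0.077), NDUFA12 (-0.44 to 0.18) and NDUFS7 (-0.42 to 0.14), the last values without sevoflurane 3. ATP5F1C (0.023) and NDUFS7 (0.11) were also positive without oxygen 3. NDUFA2 in GABAergic cells missed the 2-fold threshold (-0.99) with members among the variable genes. The cause of these changes was not tested. The smallest class, endothelial-like cells, had 740 cells, and depth limits what can be called there: 29 members were tested in it.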
